A study of Mus musculus with 43 samples.

Results

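Mouse CTLL-2 cells that had already been starved of interleukin 2 (IL-2) for 14 h were kept without it for 8 more hours. They were compared with cells collected after 14 h of starvation alone. The arrays were chosen by their titles: 3 arrays are labelled as 8 h without IL-2 (no IL-2 8 h) and 5 as the start of the time course (starved 0 h), which makes 8 of the 43 arrays of the series. No measured value entered the choice.

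CTLL-2 is a cytotoxic T cell line from a C57BL/6 mouse that depends on IL-2, and it was grown in medium with 50 U/mL human recombinant IL-2 before the withdrawal. All groups described here passed through 14 h without IL-2. The starved 0 h cells were collected then, the no IL-2 4 h cells (4 arrays) and the no IL-2 8 h cells stayed without IL-2 for 4 or 8 more hours, up to 22 h in all, and the IL-2 8 h cells (3 arrays) received 100 U/mL IL-2 for 8 h. Both groups of the main comparison were therefore deprived of the cytokine, and cells kept in IL-2 throughout were not analysed here. One cell line stands for cytotoxic T cells in every group.

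IL-2 binds a receptor of 3 chains and signals through JAK kinases and STAT5, through PI3 kinase and AKT, and through the MAP kinases. In cytotoxic T cells these pathways are known to hold up glucose uptake, protein synthesis, proliferation and survival, and to keep FoxO transcription factors out of the nucleus. T cells that lose IL-2 are known to shrink, to leave the cell cycle and, in time, to die by apoptosis.

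RNA of the whole culture was measured on Affymetrix Mouse Genome 430 2.0 arrays, and each value is a signal, a brightness on a linear scale that the authors had set to the same 2% trimmed mean on each array, 500.003 to 500.004. The number of arrays limits the precision. The labels do not say whether the 3 no IL-2 8 h arrays came from separate cultures, so the spread between these arrays may be technical. The p-values and standard errors rest on a spread pooled within the labelled groups of the whole series, including those given IL-2. They do not measure the spread of the compared arrays alone. A gene can therefore lack a call although its values lie close together within both compared groups. All 3 were scanned on 1 day of scan year 2, whereas the 5 starved 0 h arrays were scanned on 4 days of scan year 1, so that scan year and the 8 h without IL-2 cannot be told apart. Over the series, 36 arrays were scanned in year 1 and 7 in year 2, the latter being the no IL-2 4 h and 8 h arrays alone. The ratio of the 3' to the 5' probe set of the actin control ran from 1.41 to 1.53 on the no IL-2 8 h arrays and from 1.07 to 1.36 on the starved 0 h arrays. The groups did not overlap in this measure of RNA integrity. They did overlap in the same ratio of the Gapdh control, at 0.882 to 0.956 and 0.797 to 0.91. The part of RNA integrity in the results was not tested. The median signal was 61.0 to 69.5 on the former and 65.4 to 112.2 on the latter, the highest being starved 0 h replicate 2. One further array stands apart: the 4 h array labelled replicate 2 correlated with the IL-2 8 h arrays with a mean r of 0.936 across probe sets and with the no IL-2 8 h arrays with 0.929, whereas the other no IL-2 4 h arrays reached 0.956 to 0.966 with no IL-2 8 h. Its values are given wherever the 4 h group is used. Of 34 T cell genes on the arrays, 24 were above the array median on all 3 no IL-2 8 h arrays and 25 on all 5 starved 0 h arrays, including Cd3d, Cd3e, Cd3g, Cd8a and Zap70. Cd4, Cd2 and Cd5 were not among them. The summed signal of the 34 genes was 188901 to 203618 on the no IL-2 8 h arrays and 132979 to 170629 on the starved 0 h arrays.

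At 8 h, 793 of 14548 genes differed from starved 0 h, with 383 higher and 410 lower (limma, Benjamini-Hochberg adjusted p under 0.05, 1 probe set per gene). That is 5.45% of the genes tested, 2.63% higher and 2.82% lower, and these shares are the background for each gene list below. Over probe sets, 1757 of 32234 were called, 728 higher (2.26%) and 1029 lower (3.19%), and 1638 of the 1757 had groups that did not overlap. Groups that did not overlap were common among all genes too, 18.2% of them, 8.7% with the 8 h arrays higher and 9.49% with them lower, which is the background for each such statement below. The typical difference had a standard error of 0.35 on the log2 scale, and the smallest difference called in a gene was 0.41. The count rested on each of the few arrays: leaving out no IL-2 8 h replicate 1, 2 or 3 gave 589, 975 and 779 probe sets. With scan day as a random block 390 probe sets passed, and 1.24% of genes, and after centring each array on its median 823 probe sets did, of which 75.9% were higher against 41.4% before. Centring moved the median difference of all tested probe sets from -0.11 to 0.10. For 152 of the 1757 called probe sets the 7 arrays of scan year 2 lay entirely to 1 side of the 36 of scan year 1. Over all 32234 tested probe sets this was so for 210, and its part in the calls was not tested. The compared groups share no scan day, so neither the random block nor any other alternative can separate scan year from the 8 h without IL-2. For a call that stays under all of them, the same limit holds. It also holds for a gene whose values overlap between the scan years. Of the called probe sets, 681 had all 3 no IL-2 8 h arrays outside the range of the 36 arrays of scan year 1. This was not counted over all tested probe sets, and a call favours such separation. The 681 therefore have no background to be read against.

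Genes for taking up and using glucose fell, led by a transporter and a kinase. Slc2a1, which encodes the glucose transporter GLUT1, had signals of 9545, 9343, 11922, 12315 and 13960.1 on the starved 0 h arrays. On the no IL-2 8 h arrays it had 905, 812 and 783. Every 8 h array lay far below every starved array, and below the lowest of all 36 arrays of scan year 1, which was 2309. The difference of -3.74 ± 0.46 (limma standard error, log2(signal + 16) scale) is a 13.3-fold fall with an adjusted p of 3.32e-06. The other probe sets of Slc2a1 gave -3.87 and -4.28 on the same scale. Because RNA of whole cultures was measured, fewer cells with a transcript and less of it per cell cannot be told apart, here or below.

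Hk2, hexokinase 2, which traps glucose in the cell by phosphorylating it, had starved signals of 2518, 2586, 2512, 3355.5 and 3229. After 8 h it had 548, 606 and 632. The groups did not overlap, and Hk2 was 4.64-fold lower (-2.21 ± 0.46, limma adjusted p = 0.0025). With IL-2 for the same 8 h, Hk2 lay between 5545 and 6729 and Slc2a1 between 10592 and 10876. Those arrays were scanned in year 1 and are set against the same starved arrays. At other times with IL-2 the values spread more widely. Slc2a1 ran from 2309.4 at 24 h to 22812.8 at 0.5 h, and Hk2 from 1237.6 at 24 h to 8594.0 at 4 h.

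Of 23 tested genes of glycolysis and glucose uptake, 0 were higher and 6 lower at 8 h, with a median difference of -0.40 against -0.05 over all genes. Besides Slc2a1 and Hk2, these were Aldoc, aldolase C (-1.70), Pfkl, the liver-type phosphofructokinase (-1.50), Eno2, enolase 2 (-1.28), and Pgam1, phosphoglycerate mutase (-0.94). Aldoc and Eno2 were dim throughout, with starved means of 179.3 and 181.8. Of the 6, Slc2a1 and Hk2 alone passed the threshold with scan day as a random block or after median centring, and leaving out any 1 of the no IL-2 8 h arrays left 3. Slc2a3, the glucose transporter GLUT3 of lymphocytes and neurons, had 6214 ± 1099 (SD, n = 5) in starved cells and 6894 ± 372.0 (SD, n = 3) after 8 h. Its difference of 0.17 did not pass the limma test (adjusted p = 0.671), but it turned to -1.02 when the gene's probe sets were averaged, because 2 dim probe sets gave -1.95 and -2.32. The probe sets of Pdk1, the kinase that keeps pyruvate out of mitochondria, disagreed as well: the brightest gave -0.79 without a call, and 2 others were called at -1.46 and -1.54.

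**Figure D1:**
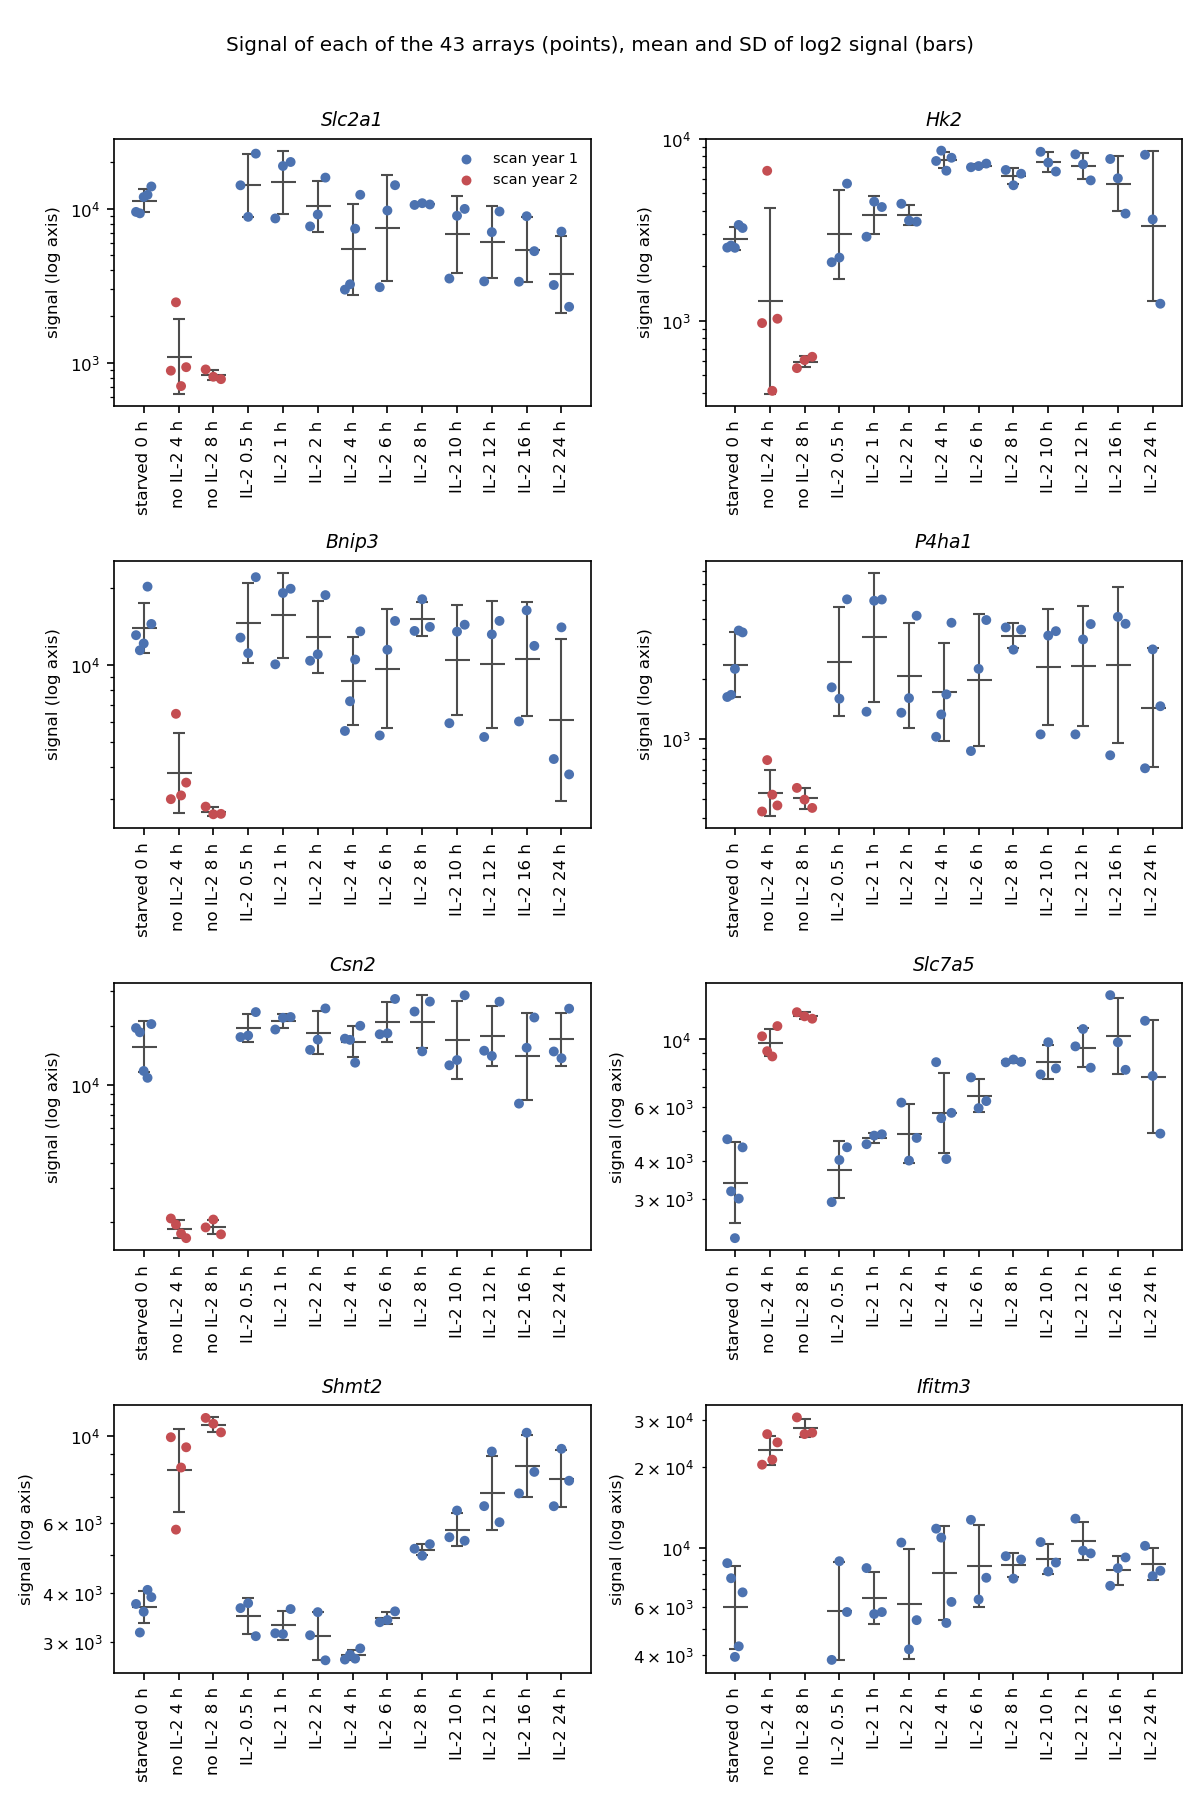
Signal of 8 genes on each of the 43 arrays, on a log axis, by group, with points coloured by scan year and bars for the mean and SD of the log2 signal. The 3 no IL-2 8 h arrays have Slc2a1 signals of 783 to 905 and lie below every array of scan year 1 for Slc2a1, Hk2, Bnip3, P4ha1 and Csn2, and above every one of them for Shmt2 and Ifitm3.

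Slc2a1 and Hk2 are also known targets of the hypoxia-inducible factor HIF-1, a transcription factor that switches on glucose metabolism and low-oxygen genes, and other known targets were among the lowered genes. Bnip3, a mitochondrial protein that drives mitophagy and is counted among the death factors, had starved signals of 13104, 11434, 12159.5, 20295.5 and 14498. Its 8 h signals were 2795, 2609 and 2619. It was 5.21-fold lower without overlap (-2.38 ± 0.40, limma adjusted p = 0.00022). P4ha1, a subunit of the prolyl 4-hydroxylase that modifies collagen, fell from 1629, 1669, 2253, 3512 and 3437 to 569.7, 497.5 and 452. This 4.58-fold fall (-2.19 ± 0.54, limma adjusted p = 0.0109) came with -3.15 at a second probe set, and its call ended with a random scan-day block, after median centring and without no IL-2 8 h replicate 3. Ankrd37 and Ddit4, the latter an inhibitor of the growth kinase mTOR, had large gaps without a call. Ankrd37 had starved signals from 4800.5 to 8266.5 and 8 h signals from 461.5 to 575.0 (-3.51 ± 1.20, limma adjusted p = 0.0805), and Ddit4 went from a starved mean of 11249.5 to 2900.5 (-1.97, adjusted p = 0.0586).

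A list of 40 known HIF-1 targets, drawn up after these values had been seen, had 37 tested genes. None was higher and 8 were lower, namely Slc2a1, Hk2, Bnip3, P4ha1, Pfkl, Aldoc, Fam162a and Mxi1. The median difference was -0.65, and 32 of the 37 differences were below 0, against 7898 of 14548 over all genes. Genes already seen to be low are among the 37. After median centring the median was -0.44, against 0.16 over all genes. In cells given IL-2 for 8 h the median of the same genes against the same starved arrays was -0.05. Other times with IL-2 were not summarized for this list, and over them Bnip3 alone ran from 3737.5 at 24 h to 22099.2 at 0.5 h. The count of 8 lower genes fell to 3 with a random scan-day block and to 3 after median centring. It fell to 5, 5 and 3 without no IL-2 8 h replicate 1, 2 or 3. Mxi1, which represses MYC targets, went from 5213 ± 670.3 (SD, n = 5) to 2869 ± 132.5 (SD, n = 3).

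The promoters of Slc2a1, Hk2 and Bnip3, which were called lower in every alternative tried, are shown because the core of the HIF binding site is known to be ACGTG. Genes and motif were chosen after the values had been seen. Sequences are RefSeq's for GRCm38.p6, from 250 bases before to 50 after the gene start, on the gene's strand, with each ACGTG or its reverse complement CACGT in capitals. Slc2a1 is at chr4:119108495-119108794 on the plus strand, Hk2 at chr6:82774405-82774704 on the minus strand and Bnip3 at chr7:138909457-138909756 on the minus strand.
Slc2a1: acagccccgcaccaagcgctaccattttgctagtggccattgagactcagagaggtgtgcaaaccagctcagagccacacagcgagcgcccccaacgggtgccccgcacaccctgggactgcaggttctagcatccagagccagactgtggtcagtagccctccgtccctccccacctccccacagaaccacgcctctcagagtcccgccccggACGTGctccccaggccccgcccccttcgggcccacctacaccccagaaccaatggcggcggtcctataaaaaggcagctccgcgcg
Hk2: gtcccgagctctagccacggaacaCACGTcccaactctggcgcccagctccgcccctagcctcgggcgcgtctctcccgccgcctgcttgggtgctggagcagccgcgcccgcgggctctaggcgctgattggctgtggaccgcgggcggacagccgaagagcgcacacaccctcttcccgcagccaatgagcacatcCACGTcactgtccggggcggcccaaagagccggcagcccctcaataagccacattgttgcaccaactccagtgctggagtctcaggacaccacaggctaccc
Bnip3: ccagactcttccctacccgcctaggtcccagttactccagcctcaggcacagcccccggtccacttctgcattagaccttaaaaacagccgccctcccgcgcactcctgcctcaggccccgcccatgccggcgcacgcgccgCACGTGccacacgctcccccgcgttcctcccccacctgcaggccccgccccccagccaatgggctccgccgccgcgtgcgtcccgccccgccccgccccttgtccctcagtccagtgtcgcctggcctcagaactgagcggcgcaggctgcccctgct
Slc2a1 holds 1 match and Hk2 holds 2, and the 2 matches of Bnip3 overlap as CACGTG, which reads the same on both strands. ACGTG occurs on either strand in 19.6% of 32851 promoters of this length. The matches describe these letters only. None of the 3 holds GTAAACA, the FoxO core searched on both strands, which 3.65% of the promoters hold.

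Genes of the caseins fell too. They encode milk proteins, and Csn2, beta-casein, is known as a STAT5 target in the mammary gland. Csn2 had signals of 19426, 18489, 11751, 10848 and 20352 in starved cells. After 8 h it had 1882, 2063 and 1736, an 8.21-fold fall (-3.04 ± 0.28, limma adjusted p = 3.24e-09). Csn1s1, alpha-s1-casein, fell from a range of 24242 to 40321 to 6061, 6199 and 6025 (-2.23 ± 0.16, adjusted p = 4e-12), and Csn3, kappa-casein, fell from 5633 to 14696 to 2060.1, 2522 and 2387 (-1.94 ± 0.41, adjusted p = 0.003). No 8 h array reached the lowest starved array for any of the 3. Csn1s2a and Csn1s2b, the other casein genes, had starved means of 58.6 and 44.2, near the array medians, and were not called. The call of Csn3 ended with a random scan-day block. For Csn2, Csn1s1 and Csn3 all 7 arrays of scan year 2 lay below all 36 of scan year 1. The 4 h array labelled replicate 2 was among the low ones, with 1944.5 for Csn2 against 14782 to 26485.5 on the IL-2 8 h arrays.

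The Csn2 promoter is shown because it holds the STAT site TTCNNNGAA, in capitals below. It lies at chr5:87699376-87699675 on the minus strand in GRCm38.p6 (RefSeq), cut as above.
Csn2: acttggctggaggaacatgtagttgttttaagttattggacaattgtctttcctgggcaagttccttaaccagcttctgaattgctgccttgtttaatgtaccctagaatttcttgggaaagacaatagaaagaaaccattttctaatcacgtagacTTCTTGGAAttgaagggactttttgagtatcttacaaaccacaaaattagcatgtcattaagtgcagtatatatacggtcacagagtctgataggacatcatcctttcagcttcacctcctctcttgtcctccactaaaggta
It holds 1 match, and 8.3% of the promoters hold this motif on either strand. Because this promoter was picked for its match, the match is not a result. Csn2 was chosen after its values had been seen, and promoters of the other caseins are not shown. The part of STAT5 was not tested. The match overlaps no ACGTG. The same window also holds 1 ACGTG on the reverse strand, left in lower case, and no GTAAACA.

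Transport of large amino acids and serine metabolism moved the other way. Slc7a5, the LAT1 transporter of leucine and other large amino acids, had starved signals of 4705, 3174, 2228, 3004 and 4424. After 8 h without IL-2 it had 12288, 11910.3 and 11697.5. The rise was 3.53-fold without overlap (1.82 ± 0.23, limma adjusted p = 3.32e-06). Slc3a2, the heavy chain that LAT1 needs at the membrane, rose 1.82-fold (0.86 ± 0.20, limma adjusted p = 0.00564), a call that ended with a random scan-day block, after median centring and without no IL-2 8 h replicate 1.

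Phgdh, the first enzyme of serine synthesis, went from 6028, 5239, 5199, 5966 and 6558 to 15078, 14545 and 14913. It was 2.57-fold higher (1.36 ± 0.13, limma adjusted p = 5.09e-09). Shmt2, which takes the one-carbon unit from serine in mitochondria, went from 3744, 3168, 3577.5, 4066 and 3897.5 to 11129.5, 10757 and 10226.5 and was 2.90-fold higher (1.54 ± 0.16, adjusted p = 3.33e-08). The 3 arrays of 8 h lay above all starved arrays for both genes, and for Shmt2 above those of all 36 arrays of scan year 1, whose highest value was 10207. Of the other probe sets of Shmt2, 1 was called at 1.47, and 2 dimmer ones, with starved means of 240.6 and 492.4, gave 1.18 and -0.14 without a call. Gpt2, which makes alanine in mitochondria, was higher as well (1.52 ± 0.43, adjusted p = 0.0262), and lost its call without any 1 of the 8 h arrays or with a random scan-day block. Of 8 serine genes listed after the values had been seen, 3 were called higher and 0 lower. All 8 of their differences were above 0, against 6650 of 14548 over all genes. Their median was 0.44, and with IL-2 for 8 h it was 0.67 against the same starved arrays. Slc7a5 was higher with IL-2 as well, by 1.32, at 8410 to 8595. Psat1, the next enzyme after Phgdh, had 4620 ± 789.2 (SD, n = 5) and 6431 ± 235.9 (SD, n = 3) and was not called (0.49, adjusted p = 0.296).

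Among 31 tested genes that answer ATF4 or amino acid shortage, 5 were higher and 1 lower, with a median of 0.35. The higher ones were Slc7a5, Shmt2, Phgdh, Slc3a2 and Aldh18a1, an enzyme of proline synthesis (0.80). The lower one was Slc7a3, a transporter of cationic amino acids (-1.71 ± 0.46, limma adjusted p = 0.0203), whose call ended without any 1 of the 8 h arrays. With a random scan-day block 3 were higher and 0 lower, and the same counts came without no IL-2 8 h replicate 1. In cells given IL-2 for 8 h, 8 of the 31 were higher and 0 lower than on the same starved arrays, with a median of 0.42. Asns, asparagine synthetase and a classic ATF4 target, had starved signals of 6068 to 10457 and 8 h signals of 11745 to 13324 and was not called (0.60 ± 0.26, limma adjusted p = 0.182), while 1 of its other probe sets was (0.94). Wars, the tryptophanyl tRNA synthetase, rose 1.75-fold (0.81 ± 0.15, adjusted p = 0.000852), and 2 of 19 aminoacyl tRNA synthetases were called higher and 0 lower.

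The immediate targets of IL-2, already without their inducer at the start, gave few calls. Cish, a STAT5-induced inhibitor of cytokine signalling, had 829.0, 1257, 586.5, 530.4 and 995.2 in starved cells and 1043, 927.9 and 938.8 after 8 more hours. On the IL-2 8 h arrays it lay between 8380.3 and 9709. The 8 h and starved groups overlapped, and the difference of 0.27 ± 0.45 did not pass the limma test (adjusted p = 0.805). Socs1, a related inhibitor, had 92.2 to 223.5 in starved cells and 75.1 to 181.2 after 8 h (-0.14 ± 0.54, adjusted p = 0.928). Myc, the growth-promoting transcription factor, had 118.2 to 325.0 and 268.2 to 368.3 (0.59 ± 0.56, adjusted p = 0.628), against 2938 to 3064 with IL-2. Differences of the size of these standard errors were not detectable with this number of arrays.

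Il2ra, which encodes CD25 and is itself induced by IL-2, had 3337, 3986, 4715, 4586.5 and 5827.5 in starved cells and 2795.0, 2845.0 and 2919 after 8 h. The groups did not overlap, and the difference of -0.63 ± 0.31 was not called (limma adjusted p = 0.257). Pim3, a survival kinase, had 1427 to 3738.5 and 529.7 to 665.1 (-1.69 ± 0.55, adjusted p = 0.0636). Pim1, a kinase of the same family, had 736.0 to 1383 in starved cells and 1448 to 2101 after 8 h (0.56 ± 0.31, adjusted p = 0.334). The 4 h array labelled replicate 2 adds to the pooled spread of such genes, and in a fit without it Il2ra and Pim3 passed the threshold (adjusted p = 0.0438 and 0.013).

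Of 41 tested genes of a fixed panel for IL-2 signalling and withdrawal, 0 were higher and 2 lower, Slc2a1 and Hk2. With the 4 h array labelled replicate 2 left out of the fit, 5 were lower, the others being Il2ra, Pim3 and Foxo3. Of 36 genes of the IL-2 and STAT5 response, 1 was higher, Slc7a5, and 2 were lower. The lower ones were Maff, a small MAF transcription factor (-2.45 ± 0.53, limma adjusted p = 0.00366), and Tnfrsf9, the costimulatory receptor 4-1BB (-0.99 ± 0.25, adjusted p = 0.0144). Maff was at 6.3, 7.8 and 15.5 after 8 h, under the median of its arrays. Tnfrsf9 had starved signals of 6653 to 13012 and 8 h signals of 3695.5 to 4846, without overlap. Neither passed with a random scan-day block, and Tnfrsf9 did not after median centring or without no IL-2 8 h replicate 1 or 2.

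**Figure D2:**
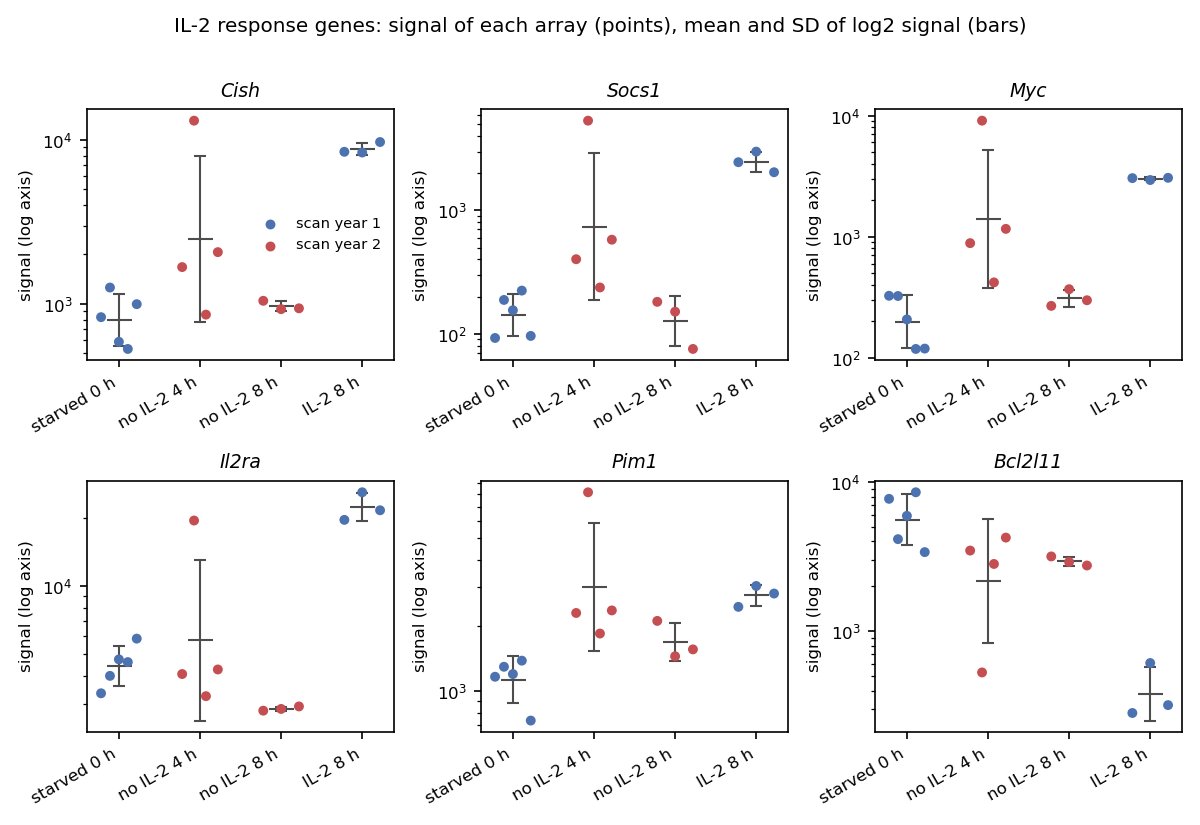
Signal of 6 IL-2 response genes on each array of 4 groups, on a log axis, with bars for the mean and SD of the log2 signal and points coloured by scan year. The no IL-2 8 h arrays overlap the starved arrays for Cish, Socs1 and Myc, and the 1 high no IL-2 4 h point, at 13108 for Cish, is the array labelled replicate 2.

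FoxO targets and genes of quiescence went both ways, with 2 higher (Lef1, Btg1) and 2 lower (Bnip3, Mxi1) of 35. With a random scan-day block 0 were higher and 1 lower, and without any 1 of the 8 h arrays 1 was higher and 1 lower. Lef1, a transcription factor of naive T cells, went from 1118, 1399, 1110, 1176.5 and 768.2 to 2750, 3089 and 2875 (1.39 ± 0.32, limma adjusted p = 0.00533). All 8 h arrays were above all starved arrays, and the call ended with a random scan-day block. Btg1, an antiproliferative gene, rose by less (1.04 ± 0.31, adjusted p = 0.0427) and lost its call without any 1 of the 8 h arrays. Ccng2, cyclin G2 and a known FoxO target of starved cells, had 7565 to 9948 in starved cells and 3222 to 3552 after 8 h (-1.40 ± 0.88, adjusted p = 0.41). Pik3ip1, an inhibitor of PI3 kinase, had means of 2078 and 2045 (0.08, adjusted p = 0.969). The probe sets of Foxo1 itself disagreed: the brightest gave -0.54 without a call, and 2 others were called at -0.77 and -1.0.

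The genes of the death machinery gave 1 rise and 1 fall among 29 pro-apoptotic genes, and 1 rise among 19 anti-apoptotic ones. The rise was Cycs, cytochrome c, which carries electrons in mitochondria and activates caspases once released. It had 5633, 10193, 9378.5, 3914 and 11088 in starved cells and 20325, 16021 and 16472 after 8 h (1.23 ± 0.25, limma adjusted p = 0.00194). The fall was Bnip3, and the anti-apoptotic rise was Bag1, a cochaperone of HSP70 (0.78 ± 0.17, adjusted p = 0.00445), a call that ended after median centring. Bcl2l11, which encodes the BH3-only protein BIM, had 3395 to 8550.1 in starved cells and 2762 to 3176 after 8 h, lower without overlap and without a call (-0.92 ± 0.52, adjusted p = 0.337). Bbc3, Bmf and Pmaip1, the genes of PUMA, BMF and NOXA, had differences of 0.46, 0.32 and 0.08, and the survival genes Bcl2, Bcl2l1 and Mcl1 of -0.67, 0.15 and -0.10. None of these 6 was called.

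Cell cycle genes changed in few members. Cdc7, the kinase that fires replication origins, had 131.8, 150.4, 216.0, 217.2 and 103.8 in starved cells and 7.6, 20.5 and 18.1 after 8 h (-2.50 ± 0.32, limma adjusted p = 5.02e-06). The 8 h values are under the median of their arrays, and the gene's other probe set, dimmer still, gave -0.75 (adjusted p = 0.404). Ttk, the spindle checkpoint kinase MPS1, went from 536.2, 713.1, 1092, 1158 and 601.7 to 174.6, 319.4 and 251.4, a 3.10-fold fall without overlap (-1.63 ± 0.32, adjusted p = 0.00157). Of 57 genes of G1/S and DNA replication 1 was higher, the chromatin factor Uhrf1 (1.40), and 3 were lower, Cdc7, the replication factor Wdhd1 (-1.17) and the origin subunit Orc4 (-0.68). With a random scan-day block 0 were higher and 2 lower (Uhrf1 adjusted p = 0.331, Wdhd1 adjusted p = 0.107), and after median centring 2 were higher and 1 lower. The calls of Uhrf1 and Wdhd1 ended without any 1 of the 8 h arrays, and that of Orc4 after median centring. The other probe set of Uhrf1 gave -0.04 without a call. Of 59 genes of G2/M and mitosis 0 were higher and 1 was lower. Their median was -0.30, and 47 of 59 differences were below 0, against 7898 of 14548 over all genes. After median centring that median was -0.08. Cdkn1b, the inhibitor p27, and Ccnd2, cyclin D2, had differences of 0.20 each without a call.

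The list with the most rises was that of the ribosome. Of 41 tested genes of cytosolic ribosomal proteins 28 were higher and 0 lower, with a median difference of 0.64. Rps10, a protein of the small subunit, had 42179.9, 32309.6, 27869, 31358 and 34233 in starved cells and 70748, 57839.8 and 58633 after 8 h, without overlap. It was 1.87-fold higher (0.90 ± 0.16, limma adjusted p = 0.00044). Rpl22 was higher as well (0.91 ± 0.16, limma adjusted p = 0.00051), and for it all 7 arrays of scan year 2 lay above all 36 of scan year 1. These genes have many near-identical copies in the genome, so their probe sets may read more than 1 gene, and Rpl27a (2.07) was read by a dim probe set with a starved mean of 185.4.

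Brightness moved with this result. Among the 728 brightest genes, the top 5%, the median difference was 0.30, whereas it lay between -0.22 and 0.11 in every dimmer bin. With the 33 ribosomal protein genes of that bin set aside, the other 695 genes still had a median of 0.28, and 125 of them, 18.0%, were called higher. Quantile normalization, which gives every array the same distribution of signals, brought the bin to a median of 0.02 and the ribosomal protein list to 0.05 with 2 called higher and 0 lower. The list had 13 higher calls after median centring, where its median was 0.86, and 9 with a random scan-day block. Leaving out no IL-2 8 h replicate 1, 2 or 3 left 8, 19 and 17, and leaving out starved 0 h replicate 2 or 3 left 18 and 17.

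**Figure D3:**
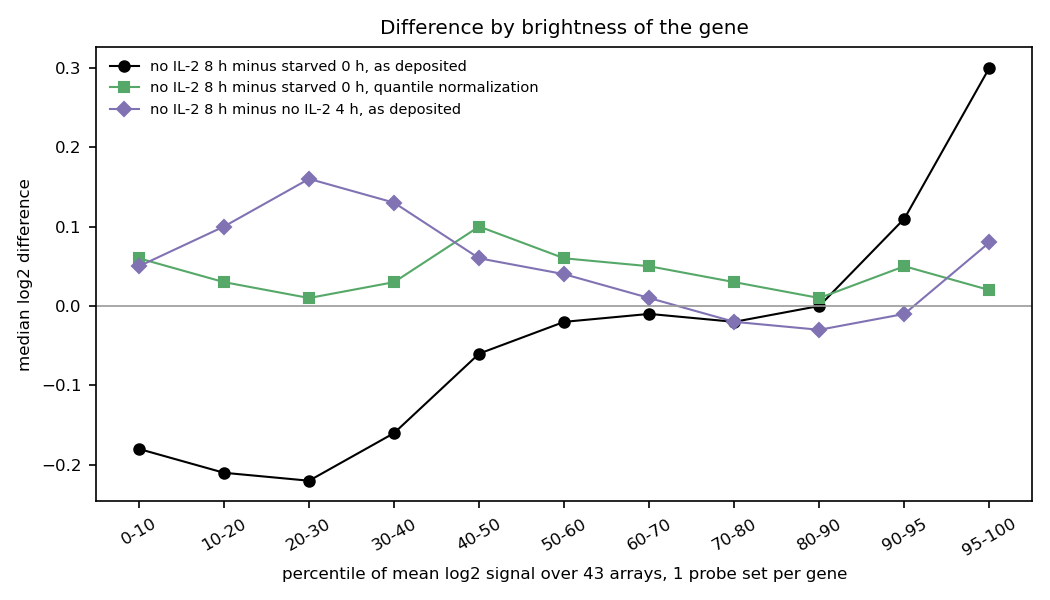
Median log2 difference of genes in 11 bins of mean signal, from the dimmest on the left to the brightest 5% on the right, with 1 line per comparison or normalization. The difference of no IL-2 8 h from starved 0 h rises to 0.30 in the brightest bin as deposited and is 0.02 there after quantile normalization.

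Other lists of bright genes had higher calls that likewise depended on the scaling. Of 58 genes of oxidative phosphorylation 9 were higher and 0 lower, with a median of 0.30. Atp5h, a subunit of the mitochondrial ATP synthase, had 20543, 19955, 17014, 16509.6 and 18684 in starved cells and 39136, 36823 and 34962 after 8 h (1.00 ± 0.15, limma adjusted p = 4.01e-05), while its second probe set gave 0.38 without a call. After quantile normalization the list had 2 higher and 2 lower and a median of 0.09. Leaving out starved 0 h replicate 4 raised the count to 17, and leaving out no IL-2 8 h replicate 1 or 3 lowered it to 4 or 6. Under the random scan-day block 5 were higher. Ndufb10, a subunit of complex I (0.84), stayed called in every alternative tried.

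Of 31 cytotoxic effectors and cytokines 7 were higher and 0 lower, and their median was 0.38. They included granzymes, the proteases that killer cells deliver to their targets: Gzmk (0.76), Gzmd (0.75) and Gzmg (0.69). Gzmd had 44226, 34070.0, 31883, 48753 and 33579 in starved cells and 74812.5, 58042 and 59634.5 after 8 h. Gzmb, granzyme B, and Prf1, the pore former perforin, were not called (0.49 and 0.39). Quantile normalization left 1 higher call and a median of 0.02, and 0 were called with a random scan-day block or without no IL-2 8 h replicate 1. Without no IL-2 8 h replicate 2 or 3 there were 4 or 3 calls, and without starved 0 h replicate 2 or 3 there were 4 or 2.

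Of 12 genes of the MYC network 0 were higher and 4 lower, with a median of -0.48. Besides Mxi1 they were Mga (-1.30), Mxd3 (-1.07) and Mlxip (-0.96), antagonists of MYC or, for Mlxip, a partner of the protein MLX. Mga had 727.6, 453.1, 620.3, 464.1 and 489.5 in starved cells and 193.0, 221.0 and 217.3 after 8 h, without overlap (limma adjusted p = 0.00173). Its other probe sets gave -0.3, -0.59 and -0.08 without a call, and its call ended when the probe sets were averaged. Mxd3 and Mxi1 each had another probe set called lower, at -1.16 and -1.61. For Mlxip all 7 arrays of scan year 2 lay below all 36 of scan year 1. Of the 4, 2 passed with a random scan-day block, 1 after median centring and 2 without no IL-2 8 h replicate 3. Of 59 ribosome biogenesis genes 5 were higher and 0 lower, with a median of 0.37. These included Dkc1, the pseudouridine synthase of ribosomal RNA (1.50 ± 0.34, adjusted p = 0.00505), and Nhp2 of the same complex (1.15). With a random scan-day block 0 passed, and without any 1 of the 8 h arrays 2 did. The other probe sets of Dkc1 gave 0.8 and 0.7 without a call, and that of Nhp2 was called at 0.79.

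**Figure D4:**
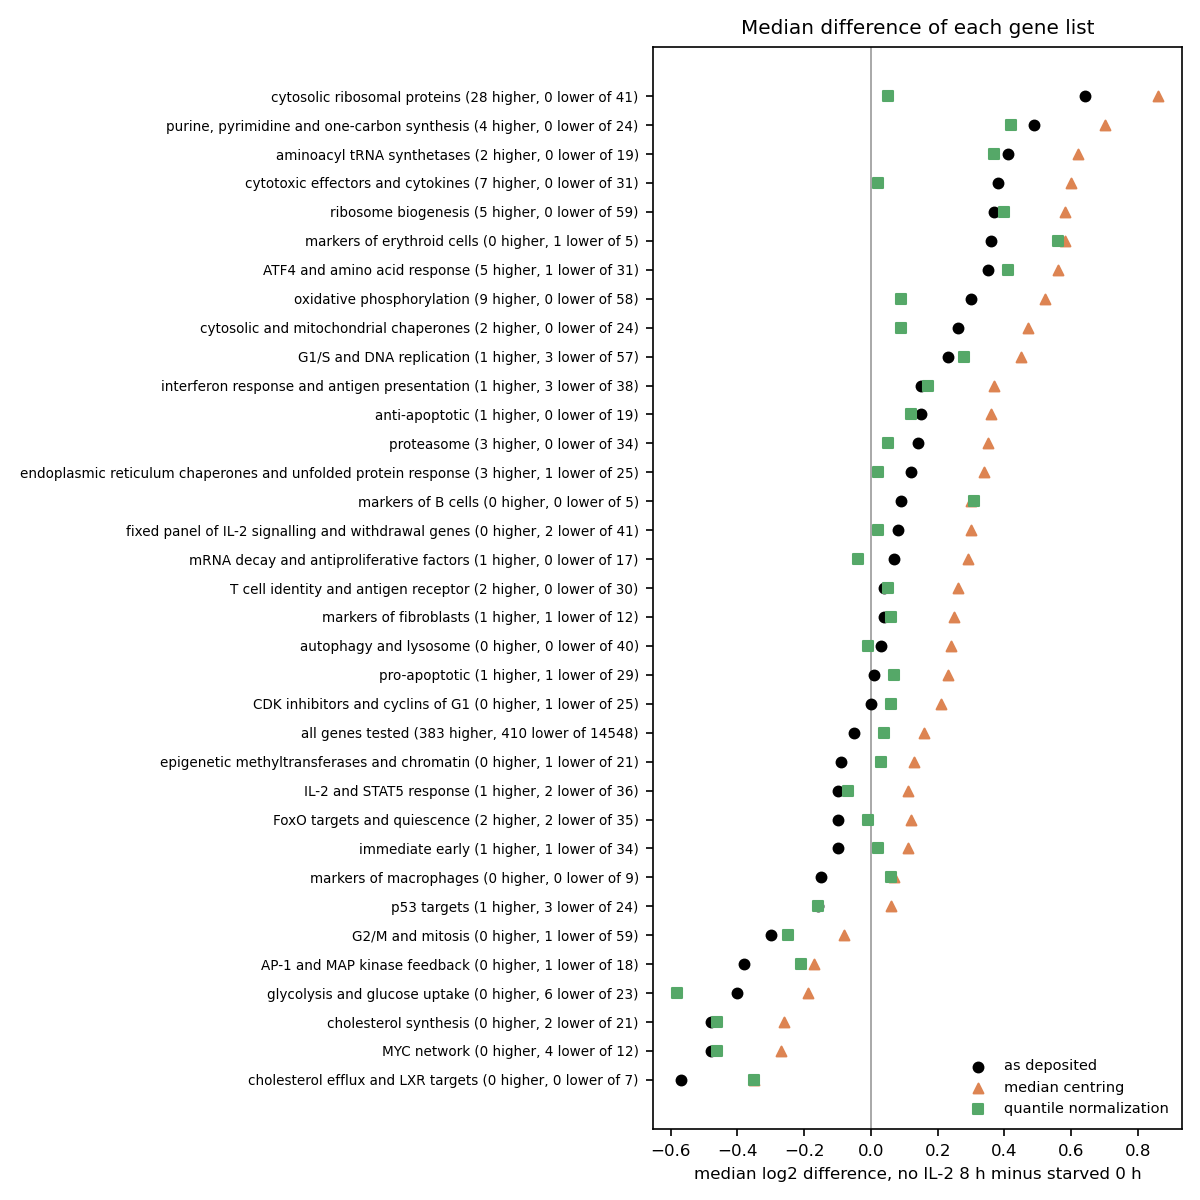
Median log2 difference of the tested members of each gene list between no IL-2 8 h and starved 0 h, with the number called in each direction, as deposited and under 2 other scalings. The ribosomal protein list has the highest median, 0.64, and falls to 0.05 after quantile normalization, while glycolysis and glucose uptake is at -0.40 and stays below 0 under both.

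Among the largest rises, all without overlap between the groups, Clec2d, a ligand of an inhibitory natural killer receptor, went from 195.3, 38.6, 201.0, 33.4 and 121.5 to 772.2, 450.0 and 818.5 (2.60 ± 0.49, limma adjusted p = 0.000927). Ifitm3, an interferon-induced membrane protein that blocks virus entry, went from 8772.5, 7707.5, 3926, 4299 and 6828 to 30611, 26531 and 26844 (2.22 ± 0.28, adjusted p = 3.32e-06). Of 38 genes of interferon response and antigen presentation it was the 1 called higher, and 3 were lower, among them the RNA sensor Ifih1 (-1.04) and the nucleic acid sensor Zbp1 (-1.11). The list had 1 higher and 0 lower under a random scan-day block (Ifih1 adjusted p = 0.258, Zbp1 adjusted p = 0.0635), and also after median centring or without no IL-2 8 h replicate 3. Without no IL-2 8 h replicate 1 it had 1 higher and 1 lower. Nfkbid, an atypical inhibitor of NF-kappaB, went from 1165, 1050.0, 841.2, 792.8 and 805.8 to 3735, 3271 and 3368.5 (1.89 ± 0.33, adjusted p = 0.00044). Tmsb15a, a thymosin that binds actin, rose 3.71-fold (1.89 ± 0.31, adjusted p = 0.000213). For Clec2d, Ifitm3 and Tmsb15a all 7 arrays of scan year 2 were above all 36 of year 1. Nfkbid came close to this, with a lowest value of 1300.2 in scan year 2 and a highest of 1310.5 in scan year 1.

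Among the falls was that of Spin4, a member of the spindlin family of histone readers. It had 663.8, 904.9, 96.7, 108.2 and 525.7 in starved cells and 1.7, 1.9 and 4.2 after 8 h (-4.21 ± 0.64, limma adjusted p = 6.29e-05), and the starved arrays themselves differed widely. The 8 h signals are far under the array medians, so the size depends on the pseudocount: Spin4 gave -6.54 with 1 and -2.62 with 64 in place of 16. Itgb3, the integrin beta 3 chain, fell from 544.0, 611.2, 1370.4, 1685 and 1673.5 to 130.4, 189.9 and 130.5 (-2.70 ± 0.64, adjusted p = 0.00781). Pik3ap1, an adaptor that links receptors to PI3 kinase, fell from 1060 to 1910.2 to 204.5 to 221.0 (-2.63 ± 0.49, adjusted p = 0.000956), and its second probe set gave -3.69. Cd93, a surface glycoprotein, fell from 163.0 to 536.6 to 14.3 to 49.5 (-2.84 ± 0.42, adjusted p = 4.01e-05), with 8 h signals under the array medians too, and gave -3.43 and -1.98 with those pseudocounts. The call of Itgb3 ended with a random scan-day block and without no IL-2 8 h replicate 1. The 7 arrays of scan year 2 lay below the other 36 for Spin4 and Cd93, but not for Itgb3 or Pik3ap1.

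The other genes among the largest changes were mostly dim. On the rising side, 2610528A11Rik had 167.5 to 223.8 in starved cells and 1210.1 to 1550 after 8 h (2.67, limma adjusted p = 5.02e-06), and it too set the scan years apart. Mndal (2.31), an interferon-inducible HIN-200 gene, Phldb2 (2.24), Sidt1 (2.06), the chromatin remodeller Chd7 (1.82) and Cryl1 (1.82) had 8 h signals between 230.0 and 708.7. Of these 5, Cryl1 alone passed with a random scan-day block, and Mndal, Sidt1 and Chd7 lost their calls without any 1 of the 8 h arrays. On the falling side, Myl10, a myosin light chain, had 254.3 to 3476 in starved cells and 34.5 to 152.6 after 8 h (-3.81). It lost its call without no IL-2 8 h replicate 3, and all 7 arrays of scan year 2 lay below all 36 of scan year 1. Cysltr2, a leukotriene receptor, had 1351 to 2856 and 276.6 to 419.0 (-2.47). Tmem45a (-2.61), Btnl9 (-2.58), 2810408A11Rik (-2.57) and the semaphorin Sema6c (-2.52) had 8 h signals between 5.6 and 127.0. Tmem45a, Sema6c and Cysltr2 did not pass with a random scan-day block. Other probe sets of Chd7 (0.2), Sidt1 (0.44), Sema6c (-0.38 and 0.36) and 2810408A11Rik (-0.44) were not called. That of Mndal gave 1.98 without a call. For Cryl1, 1 was called at 1.47, and others gave -0.53 and -1.79 without a call.

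The no IL-2 4 h arrays come from the same scan year as the 8 h arrays, so that scan year does not differ in this comparison. The actin 3' to 5' ratio did, at 1.18 to 1.34 on the 4 h arrays against 1.41 to 1.53, and its part in the result was not tested. The Gapdh ratio overlapped, at 0.869 to 0.968 on the 4 h arrays against 0.882 to 0.956. Between 4 h and 8 h without IL-2, 1 probe set of 32234, 0.0031%, and so 1 gene of 14548, 0.00687%, was called by limma, with 0 higher, while 1672 had an unadjusted p under 0.05. It was Cdc7 (-2.22, adjusted p = 0.00298), with 87.9, 280.8, 125.9 and 81.4 at 4 h, against 7.6, 20.5 and 18.1 at 8 h. No probe set passed when these 7 arrays alone were fitted, when those of scan day 7 alone were, with a pseudocount of 64, or without no IL-2 8 h replicate 1. The typical standard error was 0.36, close to that of the main comparison.

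Several genes described above had 4 h values near their 8 h values. Slc2a1 had 888.9, 2469.7, 706.1 and 936.7 at 4 h, and Csn2 had 2089, 1944.5, 1751.5 and 1659. The 8 h minus 4 h differences were -0.40 and 0.03, neither called. Slc7a5 was at 10242, 9152, 8795 and 11062 at 4 h (0.29), and Shmt2 at 9939, 5786, 8323 and 9372.0 (0.39). Hk2 had 968.5, 6659, 410.8 and 1023.5 at 4 h, so that the array labelled replicate 2 fell within the range of the IL-2 8 h arrays while the other 3 were close to the 8 h values. The same array had 13108 for Cish, 5350 for Socs1, 9089 for Myc, 19429 for Il2ra and 529.8 for Bcl2l11, each outside the range of the other no IL-2 4 h arrays. Against starved 0 h, the 4 h and 8 h differences share the 5 starved arrays, and they were -3.34 and -3.74 for Slc2a1, -1.88 and -2.38 for Bnip3 and 1.15 and 1.54 for Shmt2.

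Markers of B cells, macrophages and erythroid cells were mostly near the background. Of 9 B cell markers on the arrays, at most 1, Cd22, was above the array median on all arrays of a group, and their summed signal was 348.0 to 446.9 at 8 h and 375.4 to 679.2 in starved cells. Of 13 macrophage markers 4 passed on the no IL-2 8 h arrays and 3 on the starved ones, with sums of 2009 to 2309.5 and 1378 to 2496. Fibroblast markers summed to 57149 to 66422.5 at 8 h and 38696 to 55453.5 in starved cells, higher without overlap. Of 13 on the arrays, 6 were above the array median on all no IL-2 8 h arrays and 3 on all starved ones. Col1a2, Col5a1 and Fn1 were above it on all of the former only. That list holds Thy1 and Vim, which T cells also express. Of its 12 tested genes 1 was higher, Thy1 (0.80), and 1 lower, Col6a1, a collagen VI chain (-1.79). For Col6a1 all 7 arrays of scan year 2 lay below all 36 of scan year 1. Of 7 erythroid markers only Gata1 was above the array median on all arrays of either group, and the sums were 607.1 to 720.3 and 448.1 to 776.7. Of 5 tested erythroid genes 0 were higher and 1 was lower, the globin gene Hba-a1, which was dim with 54.1 to 110.8 in starved cells and 1.9 to 26.1 after 8 h (-1.72, limma adjusted p = 0.022). None passed with a random scan-day block or after median centring. The part of other cells in the results was not tested.

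Autophagy and lysosome genes, known to serve cells short of nutrients, had 0 calls in either direction by limma among 40 tested, with a median of 0.03. The cholesterol synthesis genes had 0 higher and 2 lower of 21 and a median of -0.48, with Sqle, squalene epoxidase, at -1.69 (limma adjusted p = 0.0436), and 0 passed with a random scan-day block (Sqle adjusted p = 0.188), after median centring or without any 1 of the 8 h arrays. T cell identity genes had 2 higher, Thy1 and Ptprc, the pan-leukocyte phosphatase CD45 (0.57), and 0 lower of 30. Under a random scan-day block 1 was higher (Ptprc adjusted p = 0.305), after median centring, after quantile normalization or without no IL-2 8 h replicate 1 there were 0, and Ptprc lost its call without any 1 of the 8 h arrays.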

How the data were processed

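RNA was hybridized to 43 arrays of 45101 probe sets. The signal intensities were made with GCOS 1.3 and deposited by the authors, per the submitters' processing notes. On the deposited values the mean after trimming 2% was 500.003 to 500.004 on every array, so levels are relative to the array. Each value was taken as log2(signal + 16), which understates changes of dim genes.

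After 64 control probe sets were removed, 32234 above the array median on at least 3 arrays were tested. Of the 45101, 34945 had 1 gene name, 932 several and 9160 none, from GEO's platform annotation, and 34741 of the named ones matched a RefSeq gene ID. Each of 14548 genes was read from its probe set with the highest mean. limma 3.58.1 in R 4.3.3 was fitted to all 43 arrays with 1 mean per labelled group (30 residual degrees of freedom, mean-variance trend), and two-sided p-values were adjusted by Benjamini-Hochberg over all probe sets, with 0.05 as the threshold. All adjusted p-values and standard errors (±, unless an SD is named) come from this limma fit. Gene lists are described by counts and medians, with no test.

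The rule for named genes took the 12 largest rises and 12 largest falls without overlap and with a group mean of at least 200, a panel of 44 genes, and up to 3 called members of each list. The panel and the lists are given by their counts, with values for some members, and further genes were chosen after their values were seen. Members and lists were chosen with earlier results of these data known. Alternatives were pseudocounts of 1 and 64, other filters, median centring, quantile normalization, array weights, no trend, averaged probe sets, only the arrays compared, the replicate number or scan day as a block, stricter thresholds, and each array left out. Replicate numbers did not pair the arrays: deviations of same-numbered 8 h and starved arrays correlated at -0.03, -0.01 and 0.01. On simulated data for this comparison over 32234 probe sets, 16 of 100 changes of 1 and 57 of 100 changes of 2 on the log2 scale were recovered, with 5 false calls. The simulated noise was normal and independent between arrays, with only these changes and no shift of scan day or scan year. The simulation therefore cannot show how scan day or scan year affects the calls.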

Additional observations from a re-analysis of the deposited data

Results flagged for a closer look

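Some arrays lay far from the rest of their group by a gap test that chance meets in about 1 of 20 groups, and 6 of 110 groups of values met it. Among the starved 0 h arrays, replicate 2 had the highest median signal, 112.2. Csn1s1 was highest on starved replicate 1, at 15.30 on the log2(signal + 16) scale, above the others of its group, while the 8 h arrays lay below all of them. Pim1 was lowest on starved replicate 5, at 9.55, and Tmsb15a was lowest on starved replicate 4, at 10.83. On the 4 h array labelled replicate 2, Il2ra was high at 14.25 and Pim1 at 12.99 on the same scale. Cdc7 is listed because its differences from starved cells at 4 h and 8 h differed by -2.22 (limma adjusted p = 0.00298).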

How the results depend on the processing

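The count of 1757 probe sets called between no IL-2 8 h and starved 0 h became 4859 with array weights, 823 after median centring, 390 with scan day as a random block, 676 at an adjusted p under 0.01 and 871 with a 2-fold minimum. Leaving out 1 array gave 589 to 1938, the latter without the 4 h array labelled replicate 2, an alternative chosen after seeing the data, as were scan day 7 alone and leaving out scan day 2. The replicate number as a block gave 1703, and the pairing it assumes was not found. Between 8 h and 4 h the single call became 32 with array weights, 0 with only the arrays compared, 0 on scan day 7 alone, 2 with a pseudocount of 1, 0 with 64, 2 after quantile normalization, 2 with the replicate block, 2 with scan day as a random block, 4 without the arrays of scan day 2, and 0 to 2 when 1 array was left out. Of the 24 largest changes, 15 passed with the random block and 17 to 24 when 1 array was left out. Over the gene lists, 109 called genes became 245 with array weights, 54 after median centring, 60 after quantile normalization, 34 with the random block, 59 at an adjusted p under 0.01, 39 with a 2-fold minimum, and 42 to 124 when 1 array was left out. Slc2a3 reversed to -1.02 when its probe sets were averaged. Of 80 called genes named by the rule, 48 had other tested probe sets, 78 in all. Among these 78, 63 had the same sign, 17 were called with it and 0 were called with the opposite sign. Of 95 called genes with values in the text or named by the rule, 25 were called in every alternative, 39 with the random block, 60 after median centring and 70 after quantile normalization. Probe sets under the array median at 8 h limit Spin4, Cd93, Maff, Cdc7, 2810408A11Rik and Hba-a1, among others. The cause was not tested for any of these shifts.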

Other observations

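Other lists had a few calls each. Of 24 genes of purine, pyrimidine and one-carbon synthesis 4 were higher and 0 lower, with a median of 0.49: Shmt2, the dUTPase Dut (1.14), the nucleotide pyrophosphatase Dctpp1 (0.98) and the nucleoside diphosphate kinase Nme2 (0.59). With a random scan-day block 1 was higher, and without no IL-2 8 h replicate 1 there were 2. Of 25 genes of endoplasmic reticulum chaperones and the unfolded protein response 3 were higher and 1 lower, which became 1 higher and 0 lower with a random scan-day block or without no IL-2 8 h replicate 1, 2 higher and 0 lower after median centring, and 1 higher and 1 lower after quantile normalization. Of 34 proteasome genes 3 were higher and 0 lower, with 1 higher and 0 lower under the random block, after median centring or without no IL-2 8 h replicate 1, and 2 higher and 2 lower after quantile normalization.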
